A study of Mus musculus with 8 samples.

Results

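The 10 genes described here encode chaperones and folding helpers of the endoplasmic reticulum: Hspa5, Hyou1, Dnajb9, Sdf2l1, Hsp90b1, Calr, Pdia4, Pdia6, Creld2 and Manf. They were found by the symbol of the transcript that each non-control probe was designed against, which gave 16 probes for these 10 genes, out of 41174 distinct probes on the array and 15203 genes that passed the filter on dim probes. All 10 genes and all 16 probes passed that filter. They were measured in RAW 264.7, a macrophage-like mouse line of BALB/c origin. Cells had been given the spore-forming Bacillus clausii (3 arrays), the gut bacterium Bifidobacterium bifidum (3 arrays) or the lactic acid bacterium Lactobacillus acidophilus (2 arrays) for 6 hours at a multiplicity of infection of 1, and the comparison was with untreated cells of the same time. Each two-colour Agilent array carried RNA of treated cells in Cy5 and of untreated cells in Cy3, so each value below is a log2 ratio of treated over untreated within an array. The dyes were never swapped, so a response common to all strains cannot be told apart from a bias of the dyes. The untreated cells had no array of their own. The design text calls the replicates biological, but nothing ties an array to a separate culture, so the p-values cover array-to-array spread only, and that spread may be technical. Less RNA per cell and fewer cells of a type cannot be told apart in such bulk samples.

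Secreted and membrane proteins fold in the lumen of the endoplasmic reticulum. Hspa5, known as BiP or Grp78, holds unfolded chains there and also sits on the sensors Ire1 (gene Ern1), Perk (gene Eif2ak3) and Atf6. When unfolded protein builds up, the sensors are set free and start the unfolded protein response, in which cleaved Atf6 and spliced Xbp1, together with the CCAAT-binding factor NF-Y, switch on chaperone genes. Their shared binding site is the endoplasmic reticulum stress response element, ERSE. Macrophages depend on the same machinery to fold Toll-like receptors, integrins and secreted cytokines.

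The arrays lay on 2 slides. B. clausii and B. bifidum each had replicates 1 and 2 on slide 2 and replicate 3 on slide 1, where both L. acidophilus arrays also lay. Over the genes bright on every array, 2 arrays of the same strain on different slides correlated at r = -0.06 to 0.03, whereas arrays of different strains on the same slide correlated at 0.46 to 0.75. B. clausii replicate 3 had 12543 probes well above background, against 21508 to 26473 on the other 7 arrays. Saturated spots numbered 84 to 131 on the arrays of slide 2 and 0 on those of slide 1, which used an extended scanning range. No spot of a member was saturated, and 1 was left out as an outlier (Hspa5 on B. clausii replicate 3). All 9 macrophage markers on the array were above background on all 8 arrays, and so were 1 of 5 T cell, 0 of 5 B cell, 0 of 5 fibroblast, 0 of 5 epithelial and 1 of 4 neutrophil markers (Cd8a and S100a8 among these).

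The promoters are shown first because ERSE is the known regulatory sequence of such genes. Of the 10 members, 8 had a promoter in the RefSeq table for build GRCm38.p6, and Hyou1 and Manf are named only. The motifs searched, on both strands of the 250 bases before the transcript start, were ERSE (CCAAT, 9 bases of any kind, then CCACG), ERSE-II (ATTGG, 1 base of any kind, then CCACG) and the unfolded protein response element UPRE (TGACGTGG). A whole ERSE stood in 5 of the 8 members, against 37 of 32851 windows of the same length (0.113%). ERSE-II was in 0 of 8 (0.0304% of all windows), and UPRE was in 0 of 8 (0.563%). The arms of ERSE, which overlap it by construction, were common, with CCAAT in 8 of 8 members and 33.8% of all windows, and CCACG in 7 of 8 and 28.3%. In the sequences below, written 5' to 3' on the strand of the gene, capitals mark the 2 arms of each whole ERSE, which reads as CGTGG followed by ATTGG where it lies on the other strand. Sdf2l1 is shown for contrast, as a gene that rose with B. clausii with no whole ERSE in the window.
Hspa5 (chr2:34771840-34772089, plus strand): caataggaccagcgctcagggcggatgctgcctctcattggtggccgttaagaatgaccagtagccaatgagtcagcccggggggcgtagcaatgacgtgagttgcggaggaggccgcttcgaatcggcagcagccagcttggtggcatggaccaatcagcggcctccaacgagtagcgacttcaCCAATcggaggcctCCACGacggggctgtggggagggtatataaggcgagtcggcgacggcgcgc
Hsp90b1 (chr10:86705445-86705694, minus strand): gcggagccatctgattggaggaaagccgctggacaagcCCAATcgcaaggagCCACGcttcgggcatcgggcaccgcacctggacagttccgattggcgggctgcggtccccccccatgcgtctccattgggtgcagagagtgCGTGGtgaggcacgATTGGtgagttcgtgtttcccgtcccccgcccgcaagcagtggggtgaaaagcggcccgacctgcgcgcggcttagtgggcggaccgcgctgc
Pdia6 (chr12:17266339-17266588, plus strand): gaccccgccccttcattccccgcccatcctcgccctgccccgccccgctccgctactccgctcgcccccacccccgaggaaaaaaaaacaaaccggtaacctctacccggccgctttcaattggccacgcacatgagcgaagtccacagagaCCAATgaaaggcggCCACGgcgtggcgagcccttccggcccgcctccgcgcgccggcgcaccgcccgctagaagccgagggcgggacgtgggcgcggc
Creld2 (chr15:88819396-88819645, plus strand): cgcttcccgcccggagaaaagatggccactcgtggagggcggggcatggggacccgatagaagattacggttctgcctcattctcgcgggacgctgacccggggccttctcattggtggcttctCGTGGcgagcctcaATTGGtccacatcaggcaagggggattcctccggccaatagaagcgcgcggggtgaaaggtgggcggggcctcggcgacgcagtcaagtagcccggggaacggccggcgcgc
Calr (chr8:84846932-84847181, minus strand): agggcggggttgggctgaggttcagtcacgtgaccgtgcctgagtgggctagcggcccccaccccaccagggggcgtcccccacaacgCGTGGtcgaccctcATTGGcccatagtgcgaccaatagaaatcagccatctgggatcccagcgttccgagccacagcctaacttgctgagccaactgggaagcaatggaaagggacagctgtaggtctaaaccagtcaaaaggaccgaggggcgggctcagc
Sdf2l1 (chr16:17132384-17132633, minus strand): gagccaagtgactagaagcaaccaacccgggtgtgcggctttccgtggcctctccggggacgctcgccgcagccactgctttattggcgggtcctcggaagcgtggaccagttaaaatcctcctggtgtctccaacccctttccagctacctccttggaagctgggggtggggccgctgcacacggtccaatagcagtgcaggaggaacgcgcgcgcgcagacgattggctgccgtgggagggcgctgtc

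**Figure D1:**
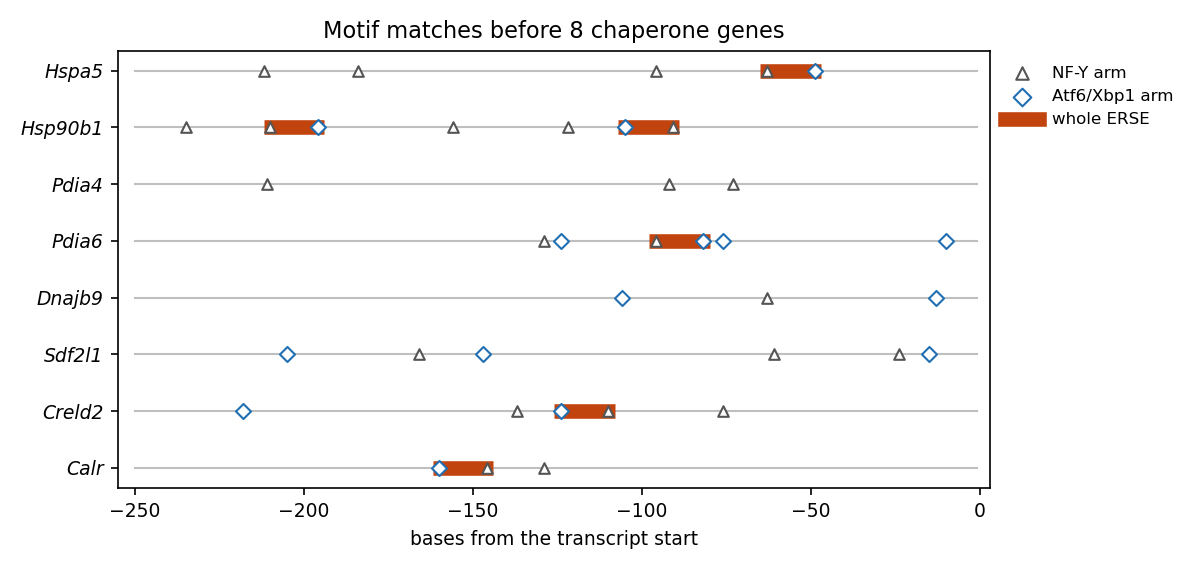
Motif matches in the 250 bases before the transcript start of 8 chaperone genes, with distance from the start in bases on the horizontal axis. Bars mark a whole ERSE, found in Hspa5, Hsp90b1 (2 copies), Pdia6, Creld2 and Calr, and open symbols mark its arms.

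The ERSE of Hspa5 began 65 bases before the start, the single one of Pdia6 98, and that of Creld2 126. Hsp90b1 had 2, which began 212 and 107 bases before the start, and that of Calr began at 162. Among other measured genes, 16 had a whole ERSE, and their median log2 ratio on the slide 2 arrays was 0.065 with B. clausii and -0.022 with B. bifidum. Of these 16, 5 rose with B. clausii on slide 2 (31.2%), against 25.3% of all genes tested. A match describes the letters in the window and does not show that a factor is bound.

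With B. clausii, 4 of the 10 chaperone genes rose over all arrays and 0 fell: Hspa5, Hyou1, Manf and Sdf2l1, at log2 ratios of 0.47 to 0.63 (limma, Benjamini-Hochberg over all genes). Of all 15198 genes tested, 1.92% were called higher and 2.41% lower. The members were chosen with earlier results of these data known, so the shares of all genes here and below describe and do not test. The ratios were high on the 2 arrays of slide 2 and lower on the array of slide 1. That array also had the fewest probes well above background, 12543, so slide and array signal cannot be told apart for this strain. With the slide as a block, 7 rose (background 10.5%), namely those 4 and Pdia4, Pdia6 and Creld2. Within slide 2, 8 rose (background 25.3%), and Dnajb9 and Calr did not pass. The array of slide 1 gave 0 calls by limma among the 9 members measured there (background 0.0528%), with 2 at an unadjusted p under 0.05 (21.1% of all genes), in a fit where the spread came from the L. acidophilus pair. Over all arrays, limma called 0 of 10 members with B. bifidum (background 1.43%), 0 with L. acidophilus (background 0%) and 0 for B. clausii over B. bifidum (background 0.0263%). In these comparisons 2, 3 and 8 members had an unadjusted p under 0.05, against 18.7%, 7.28% and 11.8% of all genes. The values of each gene follow by role, and a gene with several probes is given by the one that was brightest on average.

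**Figure D2:**
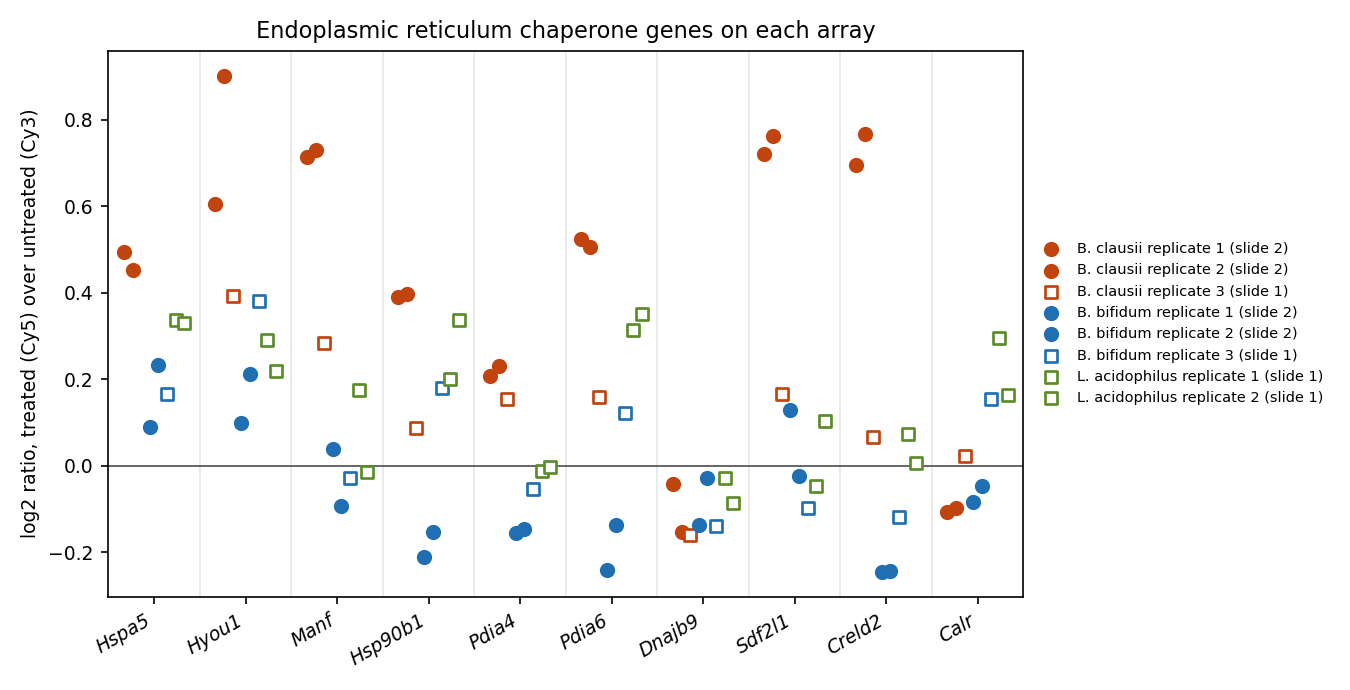
Log2 ratio of treated (Cy5) over untreated (Cy3) for each of the 10 genes on each of the 8 arrays, with strain by colour and slide by symbol (filled circles slide 2, open squares slide 1). The B. clausii arrays of slide 2 lie above all others for Hspa5, Hyou1, Manf, Pdia4, Pdia6, Sdf2l1, Creld2 and Hsp90b1, and the 8 arrays lie close together for Dnajb9.

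Hspa5 is the central Hsp70 of the compartment. Its log2 ratios were 0.49 and 0.45 with B. clausii replicates 1 and 2, 0.09, 0.23 and 0.17 with B. bifidum replicates 1 to 3, and 0.34 and 0.33 with L. acidophilus. All 7 values were above 0, and both B. clausii values were the highest. Hspa5 rose with B. clausii by 0.47 ± 0.08 (SE, n = 2 arrays, limma adjusted p = 0.0396). Its values with B. bifidum, 0.16 ± 0.07 (SE, n = 3, limma adjusted p = 0.237), and L. acidophilus, 0.33 ± 0.08 (SE, n = 2, limma adjusted p = 0.610), did not pass.

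Hyou1, known as Grp170, is a large Hsp70 relative that releases nucleotide from Hspa5 and so resets it. Its log2 ratios were 0.60, 0.90 and 0.39 with B. clausii replicates 1, 2 and 3, 0.10, 0.21 and 0.38 with B. bifidum, and 0.29 and 0.22 with L. acidophilus. Every array was above 0, and the lowest B. clausii value was level with the highest B. bifidum value, both from slide 1. The B. clausii mean of 0.63 ± 0.10 passed (SE, n = 3, limma adjusted p = 0.0374), and the B. bifidum mean of 0.23 ± 0.10 did not (SE, n = 3, limma adjusted p = 0.259).

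Sdf2l1 works in a complex with the J-domain protein Dnajb11 and Hspa5. Its log2 ratios were 0.72, 0.76 and 0.17 with B. clausii, 0.13, -0.02 and -0.10 with B. bifidum, and -0.05 and 0.10 with L. acidophilus. The B. clausii arrays did not overlap those of the other strains, though replicate 3 lay close to B. bifidum replicate 1. Sdf2l1 rose with B. clausii by 0.55 ± 0.12 (SE, n = 3, limma adjusted p = 0.0430).

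Dnajb9, known as ERdj4, is a J-domain partner that brings substrates to Hspa5 and is counted among the Xbp1 targets. Its brightest probe gave -0.04, -0.15 and -0.16 with B. clausii, -0.14, -0.03 and -0.14 with B. bifidum, and -0.03 and -0.09 with L. acidophilus. All 8 values were below 0 and the strains overlapped entirely. Its other probes gave other values, as described further on.

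Hsp90b1, known as Grp94, is the Hsp90 of the compartment and folds Toll-like receptors and integrins. Its brightest probe gave 0.39, 0.40 and 0.09 with B. clausii, -0.21, -0.15 and 0.18 with B. bifidum, and 0.20 and 0.34 with L. acidophilus. On slide 2 the strains lay on opposite sides of 0, and on slide 1 B. bifidum was the higher of the pair. The B. clausii mean of 0.29 ± 0.10 did not pass (SE, n = 3, limma adjusted p = 0.0946).

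Calr, calreticulin, is a calcium-binding lectin that holds new glycoproteins. Its brightest probe gave -0.11, -0.10 and 0.02 with B. clausii, -0.08, -0.05 and 0.15 with B. bifidum, and 0.29 and 0.16 with L. acidophilus. The L. acidophilus arrays were the highest, and the other strains overlapped. No strain passed for this probe, with limma adjusted p = 0.599 for B. clausii, 0.973 for B. bifidum and 0.658 for L. acidophilus.

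Pdia4 and Pdia6 are protein disulfide isomerases, known as ERp72 and P5. Pdia4 gave 0.21, 0.23 and 0.15 with B. clausii, -0.16, -0.15 and -0.06 with B. bifidum, and -0.01 and 0.00 with L. acidophilus. Its strains fell in separate ranges, with B. clausii above L. acidophilus and L. acidophilus above B. bifidum. The brightest probe of Pdia6 gave 0.52, 0.51 and 0.16 with B. clausii, -0.24, -0.14 and 0.12 with B. bifidum, and 0.31 and 0.35 with L. acidophilus. Its B. clausii arrays all lay above its B. bifidum arrays. Over all arrays neither gene passed with B. clausii, at 0.20 ± 0.06 for Pdia4 (limma adjusted p = 0.0812) and 0.40 ± 0.10 for Pdia6 (SE, n = 3 each, limma adjusted p = 0.0534).

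Creld2 is a secreted folding factor with disulfide isomerase activity that the unfolded protein response induces, and Manf is a secreted Hspa5-binding protein with trophic activity. Creld2 gave 0.70, 0.77 and 0.07 with B. clausii, -0.25, -0.24 and -0.12 with B. bifidum, and 0.07 and 0.01 with L. acidophilus. It was above 0 with B. clausii and below 0 with B. bifidum on every array, and the B. clausii mean of 0.51 ± 0.12 missed the threshold (SE, n = 3, limma adjusted p = 0.0524). Manf gave 0.71, 0.73 and 0.28 with B. clausii, 0.04, -0.09 and -0.03 with B. bifidum, and 0.18 and -0.02 with L. acidophilus. It was higher on every B. clausii array than on any other array, and it rose by 0.58 ± 0.10 (SE, n = 3, limma adjusted p = 0.0384).

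Over the 10 genes, the median log2 ratio was 0.51 and 0.48 on the B. clausii arrays of slide 2 and 0.15 on the array of slide 1. It was -0.11, -0.07 and 0.05 on the B. bifidum arrays and 0.19 and 0.13 on the L. acidophilus arrays, while the median of all genes lay between -0.02 and 0.01 on every array. Of the 9 members with a value on all arrays, 7 were above 0 on all 3 B. clausii arrays (background 20.3%). Of 9, 6 had every B. clausii array above every B. bifidum array (background 7.54%). With L. acidophilus, 6 of 10 were above 0 on both arrays (background 39%).

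The 4 calls over all arrays became 0 when any of B. clausii replicate 1 or 2, B. bifidum replicate 1 or 2, or L. acidophilus replicate 1 or 2 was left out, in fits that called 0 to 7 genes of all. They became 8 without B. clausii replicate 3 (background 15.5%) and 6 without B. bifidum replicate 3 (background 4.27%). They also became 0 with no background correction, with the scanner's processed signals, and with median centring in place of loess. Those fits called 48, 38 and 0 of 15198 genes.

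Within slide 2, where both strains had 2 arrays, 8 of the 10 chaperone genes separated B. clausii from B. bifidum. Because the members were chosen knowing earlier results of these data, their counts beside the background are not independent evidence. Of 10, 8 rose with B. clausii over untreated cells and 0 fell (background 30.4% lower), whereas 4 fell with B. bifidum (background 23.6%) and 0 rose (background 14.7%). On both arrays, 8 were above 0 with B. clausii (background 40%) and 6 below 0 with B. bifidum (background 42.9%), and 8 had both B. clausii arrays above both B. bifidum arrays (background 34%). The difference itself, B. clausii over B. bifidum, passed as higher for 8 (background 15%). Creld2 led, followed by Manf, Pdia6, Sdf2l1, Hyou1, Hsp90b1, Pdia4 and Hspa5. The values below rest on 2 arrays a strain.

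**Figure D3:**
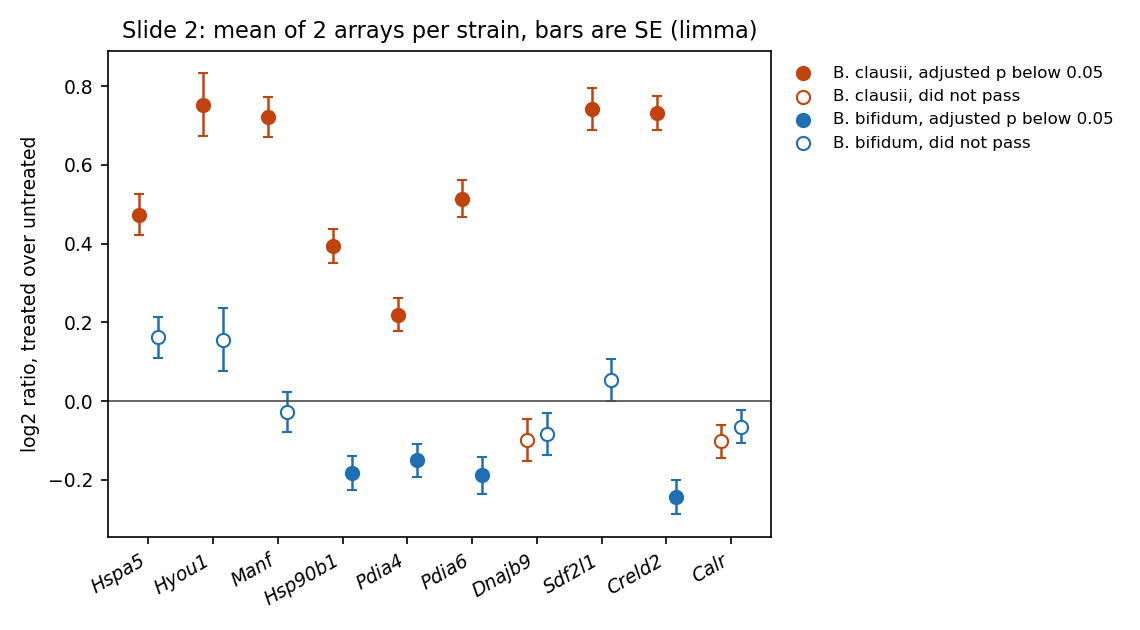
Mean log2 ratio over untreated cells on slide 2 for each chaperone gene, with B. clausii left of B. bifidum, n = 2 arrays each and bars of 1 SE from limma. Filled points passed at an adjusted p of 0.05: 8 genes with B. clausii, all above 0, and Hsp90b1, Pdia4, Pdia6 and Creld2 with B. bifidum, all below 0.

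Creld2 rose with B. clausii by 0.73 ± 0.04 (limma adjusted p = 0.000215) and fell with B. bifidum by 0.24 ± 0.04 (SE, n = 2 each, limma adjusted p = 0.00924), a difference of 0.98 ± 0.06, or 1.97-fold (limma adjusted p = 0.00107). Its scanner readings show the separation without any model. The treated channel read 5559 and 6000 with B. clausii and 3266 and 3277 with B. bifidum, while the untreated channel of those arrays read 6812, 6607, 6153 and 6185. The treated reading was thus below the untreated one on all 4 arrays before normalization. With each array centred on its median in place of loess, which sets a probe against others of like brightness, the log2 ratio of Creld2 with B. clausii was 0.08 ± 0.24 (SE, n = 2).

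Manf rose with B. clausii by 0.72 ± 0.05 (limma adjusted p = 0.000298), had -0.03 ± 0.05 with B. bifidum (SE, n = 2 each, limma adjusted p = 0.707) and differed by 0.75 ± 0.07 (limma adjusted p = 0.00213). Sdf2l1 rose by 0.74 ± 0.05 (limma adjusted p = 0.000326), against 0.05 ± 0.05 with B. bifidum (SE, n = 2 each), and differed by 0.69 ± 0.08 (limma adjusted p = 0.00298). Hyou1 rose by 0.75 ± 0.08 (limma adjusted p = 0.00106), against 0.16 ± 0.08 with B. bifidum (SE, n = 2 each), and differed by 0.60 ± 0.11 (limma adjusted p = 0.0151). These 3 genes therefore rose with B. clausii and did not pass with B. bifidum in either direction.

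The disulfide isomerases and Hsp90b1 instead passed in opposite directions. Pdia6 rose with B. clausii by 0.51 ± 0.05 and fell with B. bifidum by 0.19 ± 0.05 (SE, n = 2 each), a difference of 0.70 ± 0.07 (limma adjusted p = 0.00211). Hsp90b1 rose by 0.39 ± 0.04 and fell by 0.18 ± 0.04 (SE, n = 2 each), a difference of 0.58 ± 0.06 (limma adjusted p = 0.00266). Pdia4 rose by 0.22 ± 0.04 and fell by 0.15 ± 0.04 (SE, n = 2 each), a difference of 0.37 ± 0.06 (limma adjusted p = 0.00857). Hspa5 had the smallest difference that passed, 0.31 ± 0.07 (SE, n = 2 arrays a strain, limma adjusted p = 0.0297), with 0.47 ± 0.05 for B. clausii and 0.16 ± 0.05 for B. bifidum. All 4 falls with B. bifidum were lost without B. bifidum replicate 1 (0 of 10 members, background 12.3%), without its replicate 2 (0 of 10, background 15.1%) and with the scanner's processed signals (0 of 10, background 9.58%). With processed signals the difference between strains passed for 1 of 10, Creld2 (background 1.01%). For Dnajb9 and Calr the differences were -0.01 ± 0.08 and -0.04 ± 0.06 (SE), and intervals of 2 SE ran from -0.17 to 0.14 and from -0.16 to 0.08.

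The members were bright, at percentiles of brightness from 59.6 to 98.6 among all genes, and the sign of their ratios over untreated cells depended on how bright probes were scaled. With each slide 2 array centred on its median and no loess, 4 of 10 members were above 0 with B. clausii and 1 passed, Calr as lower (background 26.7%). With B. bifidum 0 of 10 were above 0, and all 10 passed as lower (background 37.2%). That scaling placed the median of all genes at -0.30 with B. clausii and -0.41 with B. bifidum. Relative to it, 7 of 10 members stood higher with B. clausii (median 0.19) and 0 of 10 with B. bifidum (median -0.46). Before any such shift, the difference between the strains was above 0 for all 10, with a median of 0.80. Relative to the all-gene median of that difference, 0.06, it was higher for 9 of 10 (median 0.75). No member passed for the difference in this fit, which called 0 of 15153 genes.

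On slide 1 the ranges of the strains overlapped. For the 9 genes measured with B. clausii replicate 3, the ratios ran from -0.16 to 0.39, against -0.14 to 0.38 with B. bifidum replicate 3 and -0.09 to 0.35 over both L. acidophilus arrays. None passed in any strain by limma (background 0.0461% for B. bifidum and 0% for L. acidophilus), with 2, 1 and 5 members at an unadjusted p under 0.05 for B. clausii, B. bifidum and L. acidophilus, against 21.1%, 26.4% and 25.8% of all genes. With L. acidophilus the highest means were those of Hspa5, 0.33 ± 0.05, and Pdia6, 0.33 ± 0.05 (SE, n = 2, limma adjusted p = 0.0969 and 0.0973 within slide 1). No L. acidophilus array lay on slide 2, so its strain and its slide cannot be told apart, and it was not tested against the other strains.

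The Cy3 signal of the untreated cells was also set against itself between slides, which were scanned at different ranges, so cells, labelling and scanning cannot be told apart there. The normalized Cy3 signal of Calr was lower on slide 2 than on slide 1 by a log2 difference of -1.61, that of Dnajb9 by -1.33, that of Manf by -1.16 and that of Creld2 by -0.93, while that of Hspa5 differed by 0.60 and that of Pdia6 by 0.52. The median over all genes was 0.09. The part of these baselines in the difference between slides was not tested.

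Of the 10 genes, 4 had more than 1 probe, and their probes did not always match. On slide 2, 14 of 16 probes rose with B. clausii when each probe was fitted on its own (background 20.7%), 6 fell and 1 rose with B. bifidum (background 18.9% and 10.6%), and 12 were higher in B. clausii over B. bifidum (background 10.3%). Probes are named by the serial part of their Agilent identifiers.

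**Figure D4:**
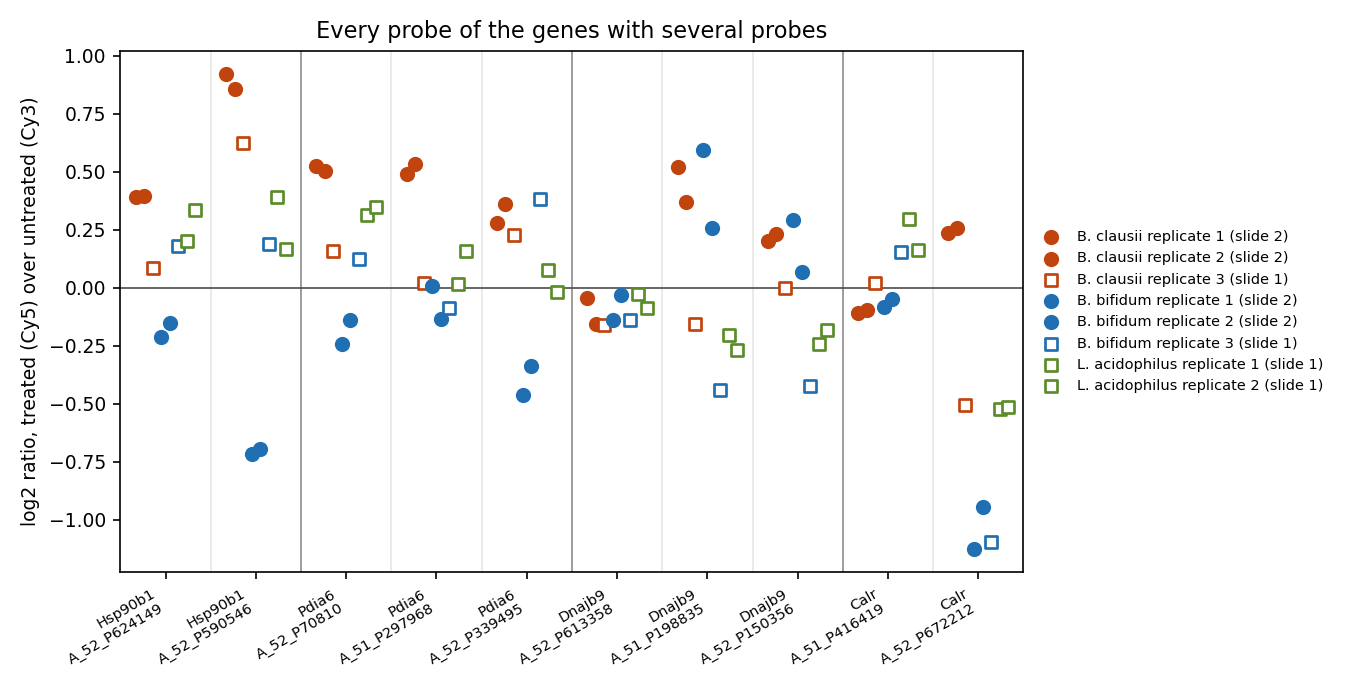
Log2 ratio of treated over untreated on each array for each of the 10 probes of Hsp90b1, Pdia6, Dnajb9 and Calr. The 3 Pdia6 probes and both Hsp90b1 probes place B. clausii above B. bifidum on slide 2, the Dnajb9 probes place the strains together, and the Calr probes differ from each other.

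The second Hsp90b1 probe, P590546, separated the strains more than the first, with 0.92, 0.86 and 0.63 for B. clausii, -0.72, -0.70 and 0.19 for B. bifidum, and 0.39 and 0.17 for L. acidophilus. B. clausii lay above 0 on all 3 arrays and B. bifidum below 0 on slide 2 alone. The slide 2 difference was 1.60 ± 0.07 (SE, n = 2 arrays a strain, limma adjusted p = 0.00119). Its treated readings were 22371 and 21793 with B. clausii and 7898 and 5775 with B. bifidum, against untreated readings of 22349 and 21521 on the B. clausii arrays and 20416 and 15616 on the B. bifidum arrays.

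The 3 Pdia6 probes gave slide 2 differences of 0.70, 0.57 and 0.72, and all passed (limma adjusted p = 0.00384, 0.00793 and 0.00437). The second Calr probe, P672212, gave 0.23, 0.26 and -0.50 with B. clausii, -1.12, -0.95 and -1.10 with B. bifidum, and -0.52 and -0.51 with L. acidophilus. It was below 0 on every B. bifidum array, and the mean of -1.06 ± 0.13 was the single member probe to fall over all arrays (SE, n = 3, limma adjusted p = 0.0131, background 1.21%). The first Calr probe, the brighter one on all 8 arrays, showed no such fall, so the 2 probes disagreed for this gene.

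Dnajb9 had 3 probes. P198835 gave 0.52, 0.37 and -0.16 with B. clausii, 0.59, 0.26 and -0.44 with B. bifidum, and -0.20 and -0.27 with L. acidophilus. P150356 gave 0.20, 0.23 and 0.00 with B. clausii, 0.29, 0.07 and -0.42 with B. bifidum, and -0.24 and -0.18 with L. acidophilus. Both probes were higher on slide 2 than on slide 1, unlike the brightest probe. On B. clausii replicate 3 their readings were low, at 51 treated and 115 untreated for P198835 and 67 and 133 for P150356. Their ratios on that array are therefore uncertain. On slide 2 P198835 rose with B. clausii by 0.45 ± 0.09 (limma adjusted p = 0.0123) and with B. bifidum by 0.42 ± 0.09 (SE, n = 2 each, limma adjusted p = 0.0215), and its difference between the strains was 0.02 ± 0.13 (SE).

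The rest of the endoplasmic reticulum machinery was read from 4 lists: 44 other folding genes, 25 of degradation, 25 of translocation and glycosylation, and 18 sensors and factors. Of these 112 genes, 110 were measured. Over all arrays, 4 rose and 4 fell with B. clausii, where 1.92% of all genes rose and 2.41% fell. With B. bifidum 0 rose and 1 fell, where 1.43% of all genes passed in either direction. With L. acidophilus and for B. clausii over B. bifidum 0 passed (background 0% and 0.0263%). On slide 2, 34 of 109 rose and 42 fell with B. clausii, where 25.3% of all genes rose and 30.4% fell, with a median of -0.01, against 8 of 10 rises and a median of 0.49 for the chaperone genes and a median of -0.01 for all genes.

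**Figure D5:**
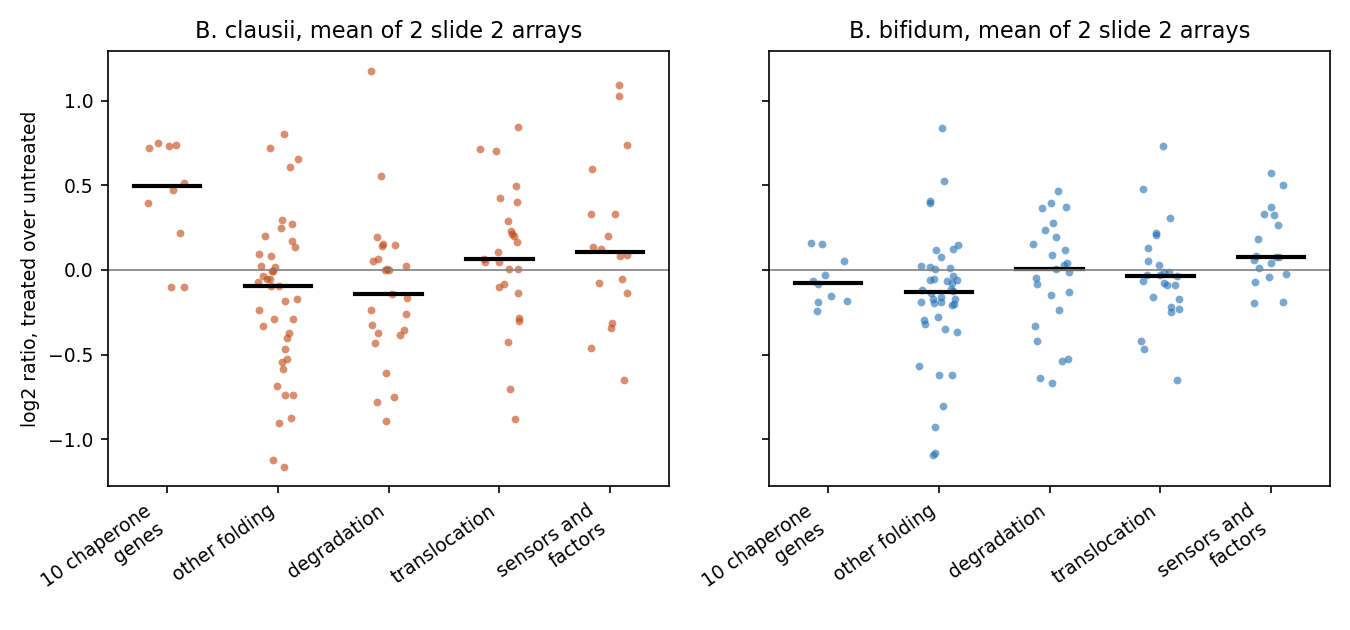
Mean log2 ratio over untreated cells on the 2 slide 2 arrays of B. clausii (left) and B. bifidum (right), 1 point a gene, for the 10 chaperone genes and 4 other lists, with black bars at the list medians. The chaperone genes have a median of 0.49 with B. clausii and -0.07 with B. bifidum, and the other lists spread on both sides of 0 in both strains.

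By list, the other folding genes had 10 rises and 18 falls of 41 with B. clausii on slide 2 (median -0.09). The degradation genes had 6 and 13 of 25 (median -0.14), the translocation genes 11 and 6 of 25 (median 0.07), and the sensors and factors 7 and 5 of 18 (median 0.11). For B. clausii over B. bifidum, 11 folding, 1 degradation, 6 translocation and 6 sensor genes were higher, and 7, 9, 2 and 4 were lower, where 15% of all genes were higher and 14.7% lower. The genes named from these lists are given from slide 2 after loess. With median centring instead, the 7 named rises with B. bifidum (Atf3, Atf4, Ddit3, Ero1a, Ostc, Ssr3 and Wfs1) had values below 0, from -0.69 to -0.18, and so did Atf4 with B. clausii, at -0.08. The other named rises with B. clausii stayed above 0 but did not pass there. Ddit3 had 0.59, Herpud1 0.50, Atf3 0.34, Ostc 0.17 and Ssr3 0.02 (limma adjusted p = 0.0782, 0.137, 0.325, 0.642 and 0.955).

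Of the degradation genes, Herpud1 stood with the chaperones. It encodes a membrane protein of the degradation complex that the unfolded protein response induces, and its log2 ratios were 1.18 and 1.18 with B. clausii and -0.20 and -0.26 with B. bifidum on slide 2. On slide 1 it had -0.09 with B. clausii, -0.11 with B. bifidum, and -0.09 and 0.10 with L. acidophilus. The slide 2 difference was 1.41 ± 0.06 (SE, n = 2 arrays a strain, limma adjusted p = 0.000675). Man1b1, a mannosidase that marks glycoproteins for degradation, fell by 0.89 ± 0.04 with B. clausii and fell by 0.67 ± 0.04 with B. bifidum (SE, n = 2 each). The lectin Os9 fell by 0.78 ± 0.05 with B. clausii and fell by 0.64 ± 0.05 with B. bifidum (SE, n = 2 each), while its second probe had 0.22 and -0.09 with B. clausii, so its probes disagreed.

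Of the folding genes, Sil1, another nucleotide exchange factor of Hspa5, fell by 1.16 ± 0.04 with B. clausii and fell by 0.62 ± 0.04 with B. bifidum on slide 2 (SE, n = 2 each, limma adjusted p = 0.000105 and 0.000677). On slide 2 it thus went the opposite way to Hyou1, which has the same task, though Hyou1 did not pass with B. bifidum. On slide 1 Sil1 had 0.13 with B. clausii and -0.03 with B. bifidum, where Hyou1 had 0.39 and 0.38. Dnajc1, a J-domain membrane protein, fell by 0.74 ± 0.04 with B. clausii and fell by 1.08 ± 0.04 with B. bifidum (SE, n = 2 each). However, 1 of its 3 probes had -0.25 and -0.18 with B. clausii and 0.07 and -0.04 with B. bifidum, so its probes disagreed for B. bifidum. Ero1a, the oxidase that recharges the disulfide isomerases, fell by 0.91 ± 0.05 with B. clausii while it rose by 0.53 ± 0.05 with B. bifidum (SE, n = 2 each). Its second probe was lower in both strains, at -1.95 and -1.92 with B. clausii and -0.42 and -0.42 with B. bifidum.

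Of the translocation genes, Ostc, a subunit of the oligosaccharyltransferase, rose by 0.84 ± 0.05 with B. clausii and by 0.22 ± 0.05 with B. bifidum (SE, n = 2 each), while its second probe had 0.49 and 0.38 with B. clausii but -0.30 and -0.01 with B. bifidum. Stt3a, its catalytic subunit, fell by 0.88 ± 0.04 with B. clausii and fell by 0.65 ± 0.04 with B. bifidum (SE, n = 2 each). Ssr3, a subunit of the translocon-associated complex, rose by 0.70 ± 0.04 with B. clausii and 0.73 ± 0.04 with B. bifidum (SE, n = 2 each), and 1 of its other probes was below 0 with B. bifidum at -0.38 and -0.37.

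None of the 3 sensor genes, nor Xbp1, passed as higher on slide 2. Ern1 had -0.08 ± 0.09 with B. clausii and 0.08 ± 0.09 with B. bifidum (SE, n = 2 each, limma adjusted p = 0.498 and 0.525). Eif2ak3 had -0.05 ± 0.04 with B. clausii (limma adjusted p = 0.342) and fell with B. bifidum by 0.20 ± 0.04 (SE, n = 2 each, limma adjusted p = 0.0189). Atf6 fell with B. clausii by 0.14 ± 0.04 (SE, n = 2, limma adjusted p = 0.0415), and had 0.06 ± 0.04 with B. bifidum, where its second probe had -0.33 and -0.39. Xbp1 fell with B. clausii by 0.31 ± 0.04 (SE, n = 2, limma adjusted p = 0.00255), against 0.08 ± 0.04 with B. bifidum, a difference of -0.39 ± 0.06 (limma adjusted p = 0.00811). Spliced and unspliced Xbp1, and cleaved Atf6, are not told apart by these probes.

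The transcription factors Ddit3, Atf3 and Atf4, which act downstream of Perk, passed as higher with both strains on slide 2, though with median centring all 3 were below 0 with B. bifidum, and with B. clausii Atf4 was below 0 while Ddit3 had 0.59 and Atf3 0.34. Ddit3, the factor Chop, rose by 1.09 ± 0.07 with B. clausii and 0.33 ± 0.07 with B. bifidum (SE, n = 2 each), a difference of 0.77 ± 0.10 (limma adjusted p = 0.00448). Atf3 rose by 1.03 ± 0.04 and 0.57 ± 0.04 with those strains (SE, n = 2 each), and Atf4 by 0.60 ± 0.05 and 0.27 ± 0.05 (SE, n = 2 each). On slide 1 these factors were at or below 0.03 on all 4 arrays, with Atf4 at -0.21 for B. clausii and -0.63 for B. bifidum. Wfs1, a membrane protein of the compartment that restrains Atf6, fell by 0.65 ± 0.05 with B. clausii and rose by 0.37 ± 0.05 with B. bifidum (SE, n = 2 each).

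By the root mean square difference from the median of the 10 members over 8 arrays, the 5 nearest of 6627 candidate genes were Pot1a at 0.045, Ptgr2 at 0.055, Herc4 at 0.056, Nasp at 0.059 and Sgcb at 0.064. Pot1a, which encodes a protein that binds telomeres, had 0.52, 0.56 and 0.17 with B. clausii, -0.10, -0.01 and 0.05 with B. bifidum, and 0.14 and 0.07 with L. acidophilus. As in the member medians, both B. clausii arrays of slide 2 were highest and both B. bifidum arrays of slide 2 lowest. The second probes of Ptgr2, Herc4 and Sgcb were below 0 with B. clausii on slide 2, so their likeness rests on 1 probe each.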

How the data were processed

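Total RNA of treated (Cy5) and untreated (Cy3) cells was co-hybridised on 8 arrays. The deposited scanner files hold spot intensity, median signal and background, written by Agilent Feature Extraction 10.7.3.1 per the file headers (10.5.1.1 per the submitters' processing notes). They also hold processed intensity, background-subtracted and dye-normalized, and a log10 ratio of Cy5 over Cy3, per the file headers. The authors' deposited value table equalled that log10 ratio to within 0.005.

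The scanner files were processed here in R 4.3.3 with limma 3.58.1. Median intensity was corrected by normexp with offset 50, log2 ratios were normalized by loess within each array with control spots at weight 0, and outlier and saturated spots were left out (no spot of a member was saturated, and keeping saturated spots was an alternative). Spots of a probe were averaged, and a probe stayed in (28598 of 41174) where 2 or more arrays had it well above background in either channel. Probes were named by their transcript accession through a RefSeq table of GRCm38.p6, which served for names and promoters, since the files name another build for their design. A gene was represented by the probe with values on most arrays, and ties went by mean brightness.

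The main fit had a mean per strain over 8 arrays against 0, with lmFit and eBayes and Benjamini-Hochberg adjustment over all genes at 0.05. The alternatives were other background corrections, scalings, filters, probe rules and eBayes settings, the slide or replicate number as a block, each slide alone, the compared strains by themselves, and leaving out each array. Fits of single probes and other processing within slide 2 were added after seeing the data. The fit was tested on simulated ratios drawn with the spread within slides and no difference between slides. That test therefore cannot show how the fit over all arrays behaves with the slide differences seen here. The precision of arrays is limited by their number.

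The members and lists were chosen with earlier results of these data known. Named genes were the 10 members, up to 3 genes of each other list with the smallest p among those that passed for B. clausii, B. bifidum or their difference, Ern1, Eif2ak3, Atf6, Xbp1, Ddit3 and Atf4 always, and the 5 genes nearest to the members' median. The replicate numbers were checked as pairs: deviations of arrays with the same number correlated at -0.06 to 0.50, and on slide 2 different numbers correlated about as highly (0.42 and 0.48) as same numbers (0.48 and 0.43), so the numbers were not taken to pair the arrays. Motifs were searched with Python 3.11.15.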

Additional observations from a re-analysis of the deposited data

Results flagged for a closer look

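Within slide 2, the response of 8 chaperone genes differed between the strains by limma's test of the difference itself. The genes were chosen with earlier results of these data known, so this count is not independent of the data. The log2 differences, B. clausii over B. bifidum, were 0.98 for Creld2, 0.75 for Manf, 0.70 for Pdia6, 0.69 for Sdf2l1, 0.60 for Hyou1, 0.58 for Hsp90b1, 0.37 for Pdia4 and 0.31 for Hspa5 (n = 2 arrays a strain), and 15% of all genes passed as higher there. Of these 8, none passed over all arrays, where all 8 had an unadjusted p under 0.05 (11.8% of all genes), and none passed on slide 1, where Hspa5 had no B. clausii value and 0 of the other 7 had an unadjusted p under 0.05 (14.7% of all genes). The groups had at most 3 arrays, so no array was tested for standing apart within its group.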

How the results depend on the processing

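Over all arrays, 4 members were called with B. clausii. That count was 0 with median centring, without background correction, with the deposited value table or the scanner's processed signals, with an intensity trend and robust eBayes, on slide 1 alone, and in a fit of the compared strains alone, 7 with the slide as a block and 8 on slide 2 alone. Of all 15198 genes, the fit called 0 with median centring, 48 without background correction and 48 with the deposited value table. It called 38 with processed signals, 1 with the intensity trend and robust eBayes, and 0 with the compared strains alone. The background of members called higher was 10.5% with the slide as a block and 25.3% on slide 2 alone. The cause of these shifts was not tested. With the replicate number as a block the member count for B. clausii was 7, where 1755 of 15198 genes rose. That block gave 0 for B. bifidum, L. acidophilus and B. clausii over B. bifidum, as without it. There it called 2179, 500 and 3 genes of all. Leaving out each array gave 0 to 8. For B. bifidum the count of 0 became 1 with the mean of a gene's probes, where 137 of 15202 genes fell. It became 4 on slide 2 alone (background 23.6%), and over all arrays stayed 0 to 0 with each array left out. For B. clausii over B. bifidum the count became 8 on slide 2 alone (background 15%) and 0 to 7 with each array left out. The 7 came without B. clausii replicate 3, where 948 of 15153 genes were higher. For L. acidophilus it was 0 under every alternative.

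Within slide 2, no background correction, processed signals, median centring and the mean of a gene's probes gave 8, 6, 1 and 9 for B. clausii, 3, 0, 10 and 5 for B. bifidum, and 8, 1, 0 and 9 for the difference. In the same order, those fits called 8232, 5522, 4101 and 8145 of 15153 genes with B. clausii in either direction. They called 6592, 2816, 5654 and 5378 of 15171 with B. bifidum, and 4568, 463, 0 and 3985 of 15153 for the difference. Each array left out gave 7 to 8, 0 to 3 and 5 to 8, with 0 for B. bifidum without either of its own arrays and 5 for the difference without either B. bifidum array. Under median centring, the signs with B. clausii turned for Hspa5 (-0.14 over all arrays and on slide 2), Hsp90b1 (-0.13 and -0.19), Pdia4 (-0.26 and -0.39) and Pdia6 (-0.06 and -0.09). With B. bifidum they turned for Hspa5 (-0.53 and -0.83), Hyou1 (-0.44 and -0.74) and Sdf2l1 (-0.58 and -0.74), and over all arrays for Calr (-0.63), which on slide 2 was below 0 by either scaling (-0.96 by this one). With L. acidophilus they turned for Dnajb9 (0.18) and Pdia4 (0.26), and between the strains for Calr (0.07 and 0.17) and Dnajb9 (0.06 and 0.05). The mean of a gene's probes turned signs for Calr and Dnajb9, among them Dnajb9 with B. clausii on slide 2 (0.19), Calr with B. bifidum over all arrays (-0.52, and -0.55 on slide 2, where the brightest probe was also below 0) and Calr between the strains on slide 2 (0.62). The number of arrays limits all of these, and Dnajb9 and Pdia4 were the dimmest members, at percentiles of 59.6 and 70.1 of brightness.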
